A study of Mus musculus with 5 samples.

Results

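The regions described here are stretches of mouse embryonic stem (ES) cell DNA in which reduced representation bisulfite sequencing (RRBS) saw few CpGs. They are 1000-base windows of the 19 autosomes, in build mm9, in which the WT library listed 3 or 4 CpGs. At least 3 of these CpGs had 10 or more reads in both the Fbxl10 T/T and the WT library. The rule was met by 18871 of the 52926 autosomal windows with 3 CpGs at that depth, 10999 of them with 3 listed CpGs and 7872 with 4. They held 62015 CpGs at 10 reads in both libraries, 37973 inside the sequence CCGG and 24042 outside it. No methylation value entered the choice. At any depth 44690 windows held 3 or 4 listed CpGs, and those below it are not described.

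In RRBS the enzyme MspI cuts DNA at CCGG, short fragments are kept, and bisulfite turns unmethylated cytosines into thymines. The share of reads that still show C is the methylation level. CpGs inside CCGG lie at the cut ends of fragments, so they are given apart from the others.

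The study held 5 libraries, 1 for each genotype: Fbxl10 T/T, Ring1B -/-, Eed -/-, Ezh2 -/- and WT. The Fbxl10 T/T and WT cells carried the strain label C57BL/6J, were grown on feeder cells in serum with LIF, and gave DNA at passage 17. The feeder cells were depleted before use. The Ring1B -/-, Eed -/- and Ezh2 -/- cells were grown in serum with LIF, and their labels name no strain, feeder layer or passage, so genotype and such differences cannot be told apart for these 3. The labels do not say what the T allele is, nor how many lines or clones stand behind a library. No genotype has a replicate, so every test sets the reads of 1 library against those of another, and none of them bears on the spread between cultures of a genotype.

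In mammalian cells most CpGs in CpG-poor DNA are methylated, whereas CpG islands mostly are not. DNMT1 copies methylation after replication, and DNMT3A and DNMT3B place it anew, in ES cells also at some cytosines followed by A. FBXL10 (KDM2B) binds unmethylated CpG-rich DNA and brings a variant Polycomb repressive complex 1 there. RING1B is the ubiquitin ligase of that class of complexes, and EED and EZH2 are core subunits of Polycomb repressive complex 2.

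A member window is in most cases 1 MspI fragment. In 14104 of the 18871 members (74.7%) the covered CpGs read CCGG, then 1 or 2 other CpGs, then CCGG, and the outer CpGs lay a median of 56 bases apart. The covered CpGs lay within 150 bases of each other in 95.2% of members. The 5-base contexts of the tables spelled out a median of 51 of the 1000 bases. These bases held a median of 6.82 CpGs per 100, against 12.7 in windows of 20 or more listed CpGs. In 88.8% of members no further CpG was listed in any of the 5 libraries. The name "sparse" therefore rests on listed CpGs, and the rest of each window was not read.

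The sequences of a few members that moved far show what such a window holds, and what little of it is read. The first 3 are runs of bases that the contexts spell out around covered CpGs in the members with the largest falls in Fbxl10 T/T, and the next 3 are from those with the largest rises. Both were taken among called members with at least 60 reads in each of the 2 libraries and differences of at least 20 points both inside and outside CCGG. They are given on the + strand of mm9, with covered CpGs in capitals.
Fall, chr9:111654566-111654580: acCGtgcagcagCGc
Fall, chr7:76512295-76512326: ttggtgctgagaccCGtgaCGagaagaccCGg
Fall, chr16:94539437-94539453: tcCGgctagtccaacaa
Rise, chr13:21533013-21533024: tcCGgcaagCGt
Rise, chr3:93249833-93249840: tcCGcCGg
Rise, chr12:120476380-120476392: ttCGacaggcCGg

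For some members the bases read also matched a RefSeq promoter (250 bases before to 50 after the start of a gene). The promoters below, from the RefSeq table of build GRCm38.p6 and on the strand of the gene, belong to the 2 genes with the largest falls and the 2 with the largest rises. Capitals mark the CpGs covered in both libraries. The other CpGs of these promoters were not tested.
Angptl8, fall, chr9:21835260-21835559, + strand: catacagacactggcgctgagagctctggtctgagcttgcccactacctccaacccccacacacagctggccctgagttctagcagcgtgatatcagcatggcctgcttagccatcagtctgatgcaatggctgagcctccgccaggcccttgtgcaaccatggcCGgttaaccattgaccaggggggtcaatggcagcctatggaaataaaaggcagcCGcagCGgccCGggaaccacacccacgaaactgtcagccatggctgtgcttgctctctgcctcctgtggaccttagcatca
Hnf4a, fall, chr2:163506607-163506906, + strand: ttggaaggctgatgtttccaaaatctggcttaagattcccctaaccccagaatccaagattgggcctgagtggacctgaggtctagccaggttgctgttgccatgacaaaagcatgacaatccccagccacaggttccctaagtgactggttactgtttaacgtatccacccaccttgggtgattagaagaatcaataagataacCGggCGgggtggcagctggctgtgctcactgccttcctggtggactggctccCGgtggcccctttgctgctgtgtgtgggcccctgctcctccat
Pgbd1, rise, chr13:21441004-21441303, - strand: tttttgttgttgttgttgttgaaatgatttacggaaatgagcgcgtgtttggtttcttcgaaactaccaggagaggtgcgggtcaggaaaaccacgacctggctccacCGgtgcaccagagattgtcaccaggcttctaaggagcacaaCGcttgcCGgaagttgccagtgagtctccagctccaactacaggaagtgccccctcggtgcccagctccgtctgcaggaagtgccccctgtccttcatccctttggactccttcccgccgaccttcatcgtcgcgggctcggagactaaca
Cacng2, rise, chr15:78119231-78119530, - strand: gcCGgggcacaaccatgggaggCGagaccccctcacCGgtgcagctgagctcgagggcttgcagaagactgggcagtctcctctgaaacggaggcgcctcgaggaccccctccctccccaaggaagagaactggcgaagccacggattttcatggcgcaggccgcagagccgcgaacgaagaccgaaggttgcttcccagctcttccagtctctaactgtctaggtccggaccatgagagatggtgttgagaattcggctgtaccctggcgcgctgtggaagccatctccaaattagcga

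Few reads stood behind a member. The median per member was 102 reads for Fbxl10 T/T and 146 for WT, a read being counted at each CpG that it covers, and each member had at least 30 in each. In 28 members WT had more than 1000 reads. The median member CpG was read 29 times in the Fbxl10 T/T library, 3 times in each of the Polycomb mutant libraries (Ring1B -/-, Eed -/- and Ezh2 -/-) and 42 times in WT. Intervals in brackets are 95% Wilson intervals. They cover counting error only, and they are too narrow, because CpGs of 1 fragment share reads and neighbouring windows resemble each other.

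Most members were methylated in both libraries, and they were less so in Fbxl10 T/T. The level of a window is the mean over its CpGs with 10 or more reads in both libraries. Over all 18871 members it averaged 66.2% ± 20.04 in Fbxl10 T/T and 78.6% ± 21.4 in WT (SD over windows, 1 library each). The median difference was -11.0 percentage points, beside -1.42 over all 52926 windows, and 78.2% of members were lower in Fbxl10 T/T. CpGs outside CCGG averaged 61.3% in Fbxl10 T/T and 77.6% in WT over 17579 windows, a mean difference of -16.3 points. Inside CCGG the averages were 69.5% in Fbxl10 T/T and 79.6% in WT over 18867 windows, a mean difference of -10.1 points. With reads weighted equally in place of windows, the difference outside CCGG was -13.2 points and that inside -9.22 points.

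Many members lay at 70% or above in WT and between 30 and 70% in Fbxl10 T/T. Members at 70% or above made up 48.5% of all in Fbxl10 T/T and 78.7% in WT. Members between 30 and 70% made up 45.7% in Fbxl10 T/T and 14.6% in WT. Members below 10% made up 1.49% in Fbxl10 T/T and 1.55% in WT. Of the 14858 members at 70% or above in WT, 8365 were still there in Fbxl10 T/T, 6352 lay between 30 and 70%, 141 between 10 and 30% and 0 below 10%.

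**Figure D1:**
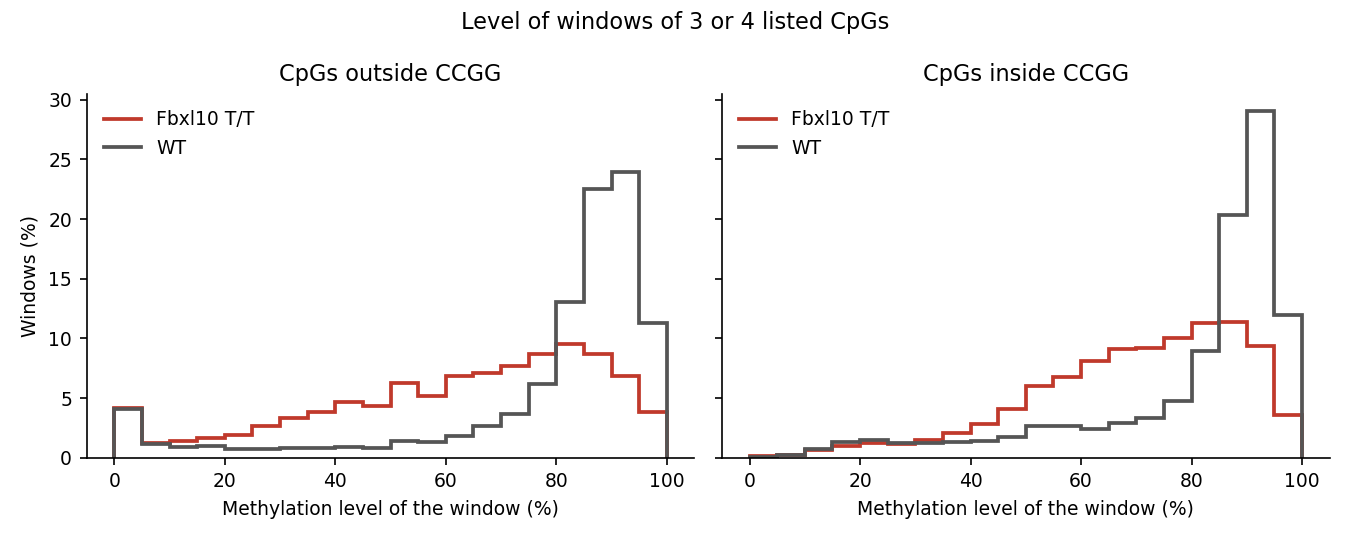
Histograms of the methylation level of member windows in steps of 5 points (x axis, %) against the share of windows (y axis, %), for CpGs outside CCGG (left) and inside CCGG (right), in Fbxl10 T/T (red) and WT (grey). Outside CCGG, 6.82% of windows lay between 90 and 95% in Fbxl10 T/T and 23.9% in WT.

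To be called, a window had to differ by 20 points or more, and Fisher's exact test (two-sided) on its summed reads had to give a Benjamini-Hochberg adjusted p below 0.05, the adjustment running over all 52926 windows. By this rule 6295 members (33.4% [32.7 to 34.0]) were called down in Fbxl10 T/T, where 18.5% of all windows tested were. Another 933 members (4.94% [4.64 to 5.26]) were called up, where 14.6% of all windows tested were. Members with 3 listed CpGs were called down in 35.3% of cases and those with 4 in 30.6%. Just outside the rule, windows with 5 listed CpGs were called down in 26.6% and up in 8.27% of 5479 cases. When reads were divided by the number of CpGs, so that each read entered about once, 4393 members were called down and 600 up.

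Single CpGs were called at 25 points, with adjustment over 618375 autosomal CpGs. Outside CCGG, 6490 of the 24042 member CpGs (27.0%) were called down, where 4.34% of all CpGs outside CCGG were, and 970 (4.03%) were called up, where 16.6% of all were. Inside CCGG, 6495 of 37973 (17.1%) were called down, where 9.86% of all CpGs inside CCGG were, and 1146 (3.02%) were called up, where 10.2% of all were.

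The called falls were mostly partial. The median level of the 6295 fallen members was 55.6% in Fbxl10 T/T and 89.4% in WT. In 4135 of them the Fbxl10 T/T level was still above 50%, in 289 it was below 30%, and in 5 it was below 10%. Every covered CpG was lower in 95.9% of the fallen members, and in 2583 every CpG was lower by at least 20 points. The measured levels of the CpGs of a fallen member differed more from each other in Fbxl10 T/T, with a mean SD of 16.1 points against 6.801 in WT. In uncalled members the mean SD was 11.9 points in Fbxl10 T/T and 9.15 in WT. The part of read depth, of level and of the gap between CpGs inside and outside CCGG in these SDs was not tested. The 933 risen members had a median of 69.95% in Fbxl10 T/T and 32.1% in WT. Every covered CpG was higher in 95.5% of them, which the call favours in the same way.

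The direction followed the level in WT, which also enters the difference and bounds how far a window can move. Of the 14858 members at 70% or above in WT, 39.8% [39.01 to 40.6] were called down, and their levels averaged 70.9% in Fbxl10 T/T and 88.1% in WT. Of the 957 members between 10 and 30% in WT, 40.8% [37.7 to 43.9] were called up, with averages of 35.9% in Fbxl10 T/T and 19.05% in WT. Of the 293 members below 10% in WT, 14.0% [10.5 to 18.4] were called up and 0 down, which allows a share called down of up to 1.29%. The 2763 members between 30 and 70% moved both ways, with 13.8% called down and 18.02% called up.

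At the same WT level, windows with 5 or more listed CpGs gave other shares. Among windows at 70% or above in WT, 31.4% [30.5 to 32.3] of the 10265 such windows were called down, beside 39.8% of the members. By listed CpGs the share called down in this class was 41.5% at 3, 37.3% at 4, 34.2% at 5 to 6 and 28.5% at 7 to 9. The reads per window run the other way, from a median of 92 in Fbxl10 T/T and 130 in WT at 3 listed CpGs to 173 in Fbxl10 T/T and 257 in WT at 7 to 9. The mean difference in this class was -17.8 points at 3 listed CpGs, -16.3 at 4, -15.0 at 5 to 6 and -12.8 at 7 to 9. Between 30 and 70% in WT, 18.02% [16.6 to 19.5] of members were called up, beside 34.2% [32.8 to 35.7] of windows with 5 or more listed CpGs. Between 10 and 30% the shares called up lay closer, at 40.8% of members and 45.4% of the other windows.

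**Figure D2:**
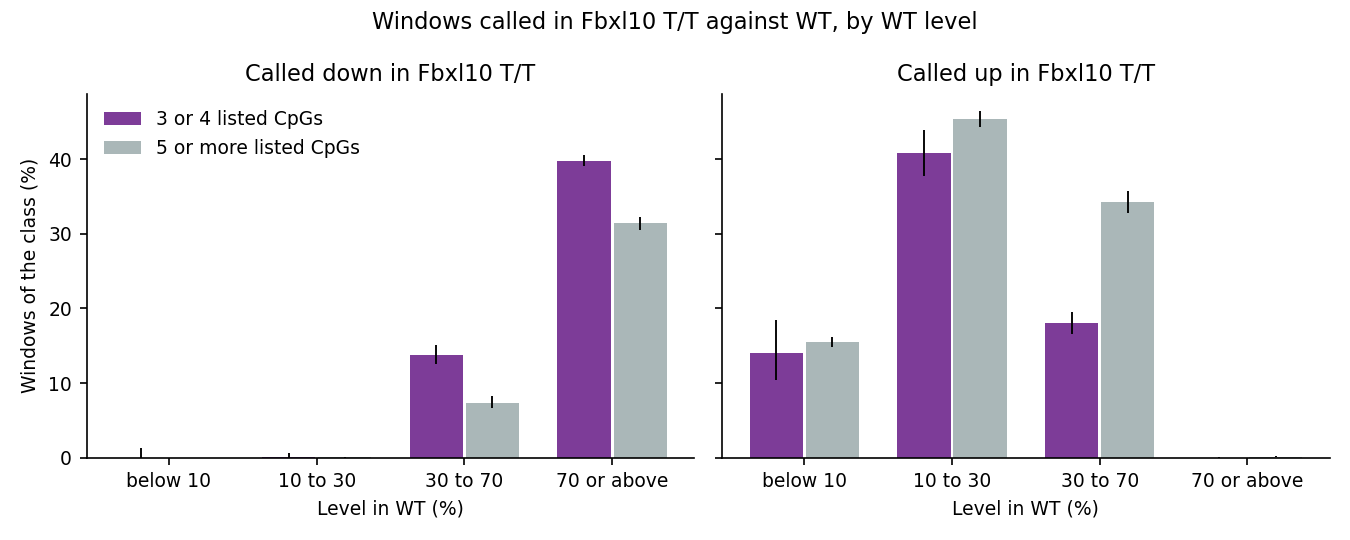
Share of windows (y axis, %) called down (left) and up (right) in Fbxl10 T/T against WT by level in WT (x axis, %), for members (purple) and windows of 5 or more listed CpGs (grey), with 95% Wilson intervals. At 70% or above in WT, 39.8% of members and 31.4% of the other windows were called down.

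CpGs outside CCGG showed a larger measured fall than their neighbours inside CCGG on the same window. In the 17575 members with both kinds, the difference outside minus the difference inside averaged -6.34 points, and it was below 0 in 65.7% of them. Outside CCGG these members averaged 61.3% in Fbxl10 T/T and 77.6% in WT. Inside CCGG they averaged 69.8% in Fbxl10 T/T and 79.8% in WT. The same gap stood along single fragments. In the 10380 members of the order CCGG, other, CCGG, the middle CpG averaged 61.1% in Fbxl10 T/T and 79.4% in WT. The first CpG averaged 69.5% in Fbxl10 T/T and 80.7% in WT, and the last 69.6% in Fbxl10 T/T and 81.0% in WT. Both ends thus lay within 1 point of each other in either library. CpGs inside CCGG rarely read near 0 in either library. Windows below 5% made up 4.16% in Fbxl10 T/T and 4.11% in WT outside CCGG, against 0.117% and 0.0742% inside. The part of such a floor in the gap was not tested. Reads that cover the middle also cover an end, and the part of end repair at the cut sites was not tested.

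The bases beside the CpG went with the size of the loss outside CCGG. Where A came before the CpG and T after it, the 1380 member CpGs averaged 55.1% in Fbxl10 T/T and 77.0% in WT, a difference of -21.9 points. Where C stood on either side, the 2240 CpGs averaged 61.3% in Fbxl10 T/T and 72.8% in WT, a difference of -11.5 points. These were the largest and the smallest mean difference of any pair of flanking bases, and the latter pair was also lowest in WT. With 0, 1 or 2 of the flanking bases being A or T, the mean difference was -12.3, -15.2 and -19.5 points. Within members at 70% or above in WT it was -19.96, -20.4 and -23.6 points, so the steps were smaller there. Single pairs of bases did not all keep this order there. TCGC, with 1 A or T, had -23.9 points, and TCGT, with 2, had -21.6. ACGT had the largest difference, -26.6 points, and CCGC had -19.3.

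The loss was larger where CpG-rich DNA was far away. A CpG-rich window was one with at least 20 listed CpGs in WT, a cut chosen after the values were seen. Of the 620 members next to such a window, 9.68% [7.59 to 12.3] were called down and 16.9% up, and they averaged 36.4% in Fbxl10 T/T and 33.8% in WT. At 6 to 20 kb 21.3% were called down, at 101 to 200 kb 40.2%, and at over 500 kb 58.6% [56.0 to 61.3]. The 1337 members at over 500 kb averaged 59.3% in Fbxl10 T/T and 82.3% in WT. Among members at 70% or above in WT the share called down was 30.6% next to a CpG-rich window, 25.8% at 6 to 20 kb, 46.2% at 101 to 200 kb and 67.6% at over 500 kb. The median reads there were 102 in Fbxl10 T/T and 150 in WT at 6 to 20 kb, and 93 in Fbxl10 T/T and 123 in WT at over 500 kb.

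The 3 Polycomb mutant libraries did not share this course. WT cannot be read for it in members at 70% or above in WT, since that choice holds WT high. Over all members WT averaged 77.6% at 6 to 20 kb and 82.3% at over 500 kb. In members at 70% or above in WT, summed reads outside CCGG were 71.4% methylated at 6 to 20 kb and 56.6% at over 500 kb in Fbxl10 T/T. In Ring1B -/- they were 64.0% and 71.5% at the same distances, in Eed -/- 72.2% and 75.9%, in Ezh2 -/- 62.2% and 71.6%, and in WT 86.6% and 88.9%. Cytosines followed by C, where little methylation is known, showed C in 0.547% of reads at 6 to 20 kb and 0.682% at over 500 kb in Fbxl10 T/T. In Ring1B -/- these shares were 2.33% and 3.94%, in Eed -/- 2.54% and 4.02%, in Ezh2 -/- 2.07% and 3.31%, and in WT 0.648% and 0.807%. The part of unconverted cytosines in the climb of the 3 Polycomb mutant libraries was not tested. The difference in course between libraries was not tested either, since there is 1 library per genotype.

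**Figure D3:**
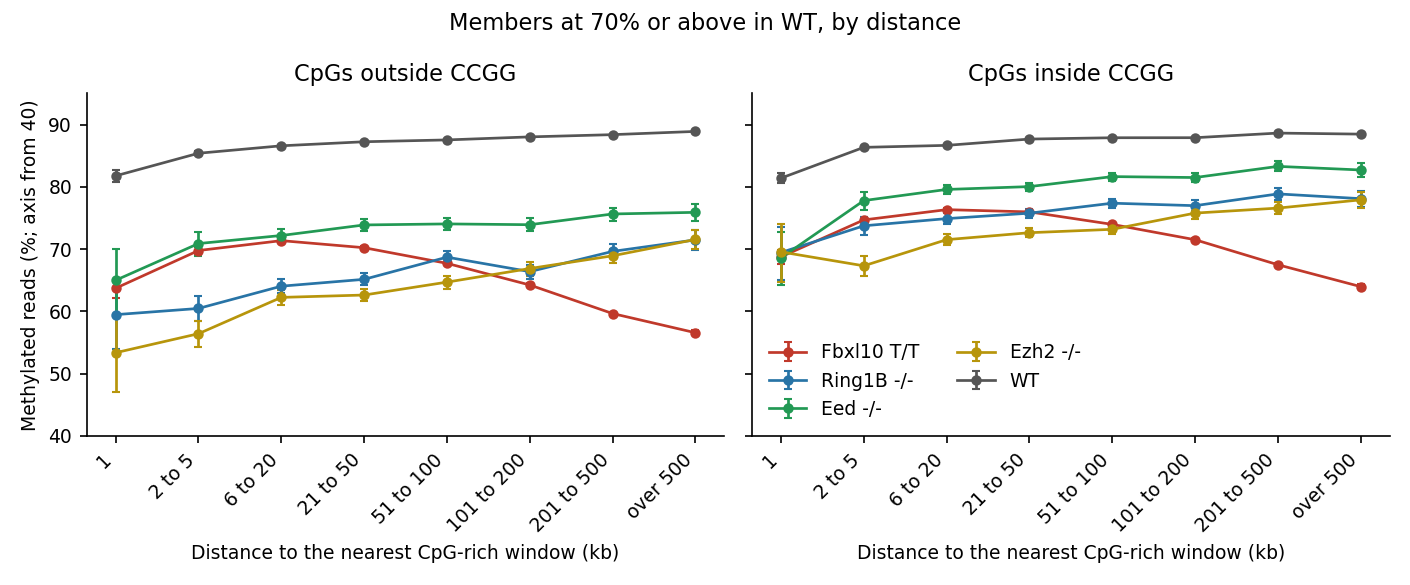
Methylated reads (y axis, %, starting at 40) of members at 70% or above in WT by distance to the nearest window of at least 20 listed CpGs (x axis, kb), outside CCGG (left) and inside CCGG (right), with 95% Wilson intervals. Outside CCGG the Fbxl10 T/T line lies at 71.4% at 6 to 20 kb and at 56.6% at over 500 kb, while the lines of the other 4 libraries end higher than they stand at 6 to 20 kb.

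Members near each other moved alike. Across pairs of members on 1 chromosome, which share both libraries, the differences between Fbxl10 T/T and WT correlated at a Pearson r of 0.55 for 424 pairs of adjacent windows. The r was 0.27 for 3942 pairs at 6 to 20 kb, 0.12 for 17338 pairs at 101 to 500 kb and 0.033 for 18699 pairs at 1001 to 5000 kb. By chromosome, between 25.4% (chromosome 10) and 38.3% (chromosome 6) of members were called down, so no autosome stood without the loss. Chromosome 6 also had the most reads per member in Fbxl10 T/T, a median of 130, against 136 in WT.

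Single windows were ranked among called members with at least 60 reads in each library and differences of at least 20 points both inside and outside CCGG. This left 3608 of the 6295 fallen members and 572 of the 933 risen ones. The largest falls among them were mostly unmethylated in Fbxl10 T/T and highly methylated in WT. At chr9:111654001-111655000 (mm9) the 3 CpGs averaged 16% in Fbxl10 T/T (75 reads) and 97.8% in WT (135 reads), with an adjusted p of 4.15e-36 from Fisher's exact test. Its CpGs outside CCGG were at 16% and 4% in Fbxl10 T/T, and both were at 97.8% in WT. At chr7:76512001-76513000 the 3 CpGs, whose bases are printed above, stood at 10%, 30% and 45% in Fbxl10 T/T (20 reads each), against 100.0% at each in WT (25 reads each). At chr16:94539001-94540000 the window averaged 17.5% in Fbxl10 T/T and 89.0% in WT. The 10 largest such falls stood between 10.4 and 28.3% in Fbxl10 T/T and between 79.1 and 100.0% in WT. Their adjusted p-values from Fisher's exact test lay between 7.01e-55 and 1.99e-16. None of the 10 fell at a promoter that could be placed, where only 1.11% of all members did.

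Over all risen members the largest rise was 82.2 points. Among the ranked windows it was that at the promoter of Pgbd1, a gene derived from a piggyBac transposase. The 3 CpGs averaged 88.4% in Fbxl10 T/T (91 reads) and 13.1% in WT (187 reads), with an adjusted p of 7.56e-35 from Fisher's exact test. The CpG outside CCGG was at 93.8% in Fbxl10 T/T (32 reads) and 1.67% in WT (60 reads). The same window had 22.2% methylated reads in Ring1B -/- (9 reads), 7.69% in Eed -/- (13 reads) and 21.4% in Ezh2 -/- (28 reads). The next was chr3:93249001-93250000, with 75.6% in Fbxl10 T/T and 2.93% in WT over 4 CpGs. The 6 largest rises among the ranked windows stood between 70.7 and 88.4% in Fbxl10 T/T and between 2.93 and 13.1% in WT. Of these 6 windows, 3 were next to a CpG-rich window.

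Few members held a promoter that could be placed, and these had lower levels than the other members. RefSeq promoters were placed by exact match to the bases that the tables spell out, which placed 9535 of 32851. A match needed at least 40 known bases, and a member had a median of 51. Other members can therefore hold promoters that were not placed. Of the 18871 members, 210 (1.11%) held such a promoter, belonging to 218 genes. These members averaged 37.0% in Fbxl10 T/T and 34.9% in WT, and 25 were called down (11.9%, beside 18.5% of all windows) and 37 up (17.6%, beside 14.6% of all windows and 16.3% of windows of 5 or more listed CpGs at a promoter). Of the 51 at 70% or above in WT, 25 were called down (49.0% [35.9 to 62.3]), beside 39.8% of the 14807 other members in that class. Of the 84 between 10 and 30% in WT, 23 were called up (27.4% [18.99 to 37.7]), beside 42.0% of the 873 others. The interval of the methylated promoters takes in the share of the other members, and that of the promoters between 10 and 30% lies below it.

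The largest fall at a promoter was that of Angptl8. Angptl8, a secreted regulator of lipoprotein lipase, averaged 14.9% in Fbxl10 T/T (129 reads) and 79.1% in WT (177 reads), with an adjusted p of 1.26e-25 from Fisher's exact test. Its CpGs outside CCGG were at 3.23% and 6.45% in Fbxl10 T/T, against 86.1% and 80.6% in WT. Hnf4a, a nuclear receptor of liver and gut, averaged 29.2% in Fbxl10 T/T and 89.0% in WT. In the other libraries the Hnf4a window had few reads, with 25% methylated of 8 in Ring1B -/-, 33.3% of 6 in Eed -/- and 0% of 6 in Ezh2 -/-. Hnf4a was thus high in WT and lower in Fbxl10 T/T. The 3 Polycomb mutant libraries had under 10 reads each, counted at each CpG, which is too few to place their levels.

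Egfl7, an endothelial secreted factor, averaged 22.8% in Fbxl10 T/T and 78.5% in WT, and its CpG outside CCGG was at 0% of 34 reads in Fbxl10 T/T and 81.4% of 43 reads in WT. In the Polycomb mutants the Egfl7 window had 76.2% in Ring1B -/- (21 reads), 75.9% in Eed -/- (29 reads) and 58.3% in Ezh2 -/- (12 reads). Lrrc4c, a synaptic adhesion protein, averaged 25.6% in Fbxl10 T/T and 78.3% in WT. Smaller falls were called at Impg1 (photoreceptor matrix), with 44.4% in Fbxl10 T/T and 81.2% in WT, and at Cck (cholecystokinin), with 54.2% in Fbxl10 T/T and 84.6% in WT. Kcnip3, Kcnj12, Hcar1, Ushbp1, Tmem178b and Pbld1 stood between 46.4 and 67.6% in Fbxl10 T/T, against 77.8 to 92.0% in WT.

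Of the 37 risen promoter members, 30 were below 30% in WT and 7 between 30 and 70%, and the 16 shown, chosen by the size of the rise, were all below 30%. Cacng2, an auxiliary subunit of AMPA receptors, averaged 75.2% in Fbxl10 T/T (120 reads) and 10.96% in WT (299 reads), and the window also holds the promoter of A730060N03Rik. Slc4a3, an anion exchanger, averaged 65.9% in Fbxl10 T/T and 4.98% in WT, and its CpGs outside CCGG were at 66.7% and 68.9% in Fbxl10 T/T against 0 of 68 reads at each in WT. Otx2, a homeobox factor of the forebrain and of early epiblast, averaged 82.1% in Fbxl10 T/T and 24.8% in WT, with an adjusted p of 4.45e-29 from Fisher's exact test. At Otx2 the Polycomb mutants gave 18.8% in Ring1B -/- (16 reads), 14.3% in Eed -/- (14 reads) and 15.4% in Ezh2 -/- (13 reads), near or below WT.

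Fgf5, a growth factor of the epiblast, averaged 67.9% in Fbxl10 T/T and 20% in WT. Cav1 (caveolin) averaged 63.8% in Fbxl10 T/T and 17.98% in WT, and Col1a2 (a collagen I chain) 54.0% in Fbxl10 T/T and 15.0% in WT. The other risen promoters shown, those of Fam151b with Gm52060, Slc44a2, Magi1, Plek2, Pvalb, Marchf10, Psd4, Epha10 and Oaf, stood between 51.1 and 77.4% in Fbxl10 T/T and between 9.07 and 17.9% in WT. In WT the low level of these promoters lay mostly inside CCGG: at Otx2 the CpGs inside averaged 41.6% and those outside 7.97%, and at Slc4a3 14.9% and 0%. At Cav1 they lay close, at 18.75% and 16.4%. At Otx2 both kinds were high in Fbxl10 T/T, with 82.7% inside and 81.4% outside. The WT split was not particular to risen promoters. Uncalled promoters such as Lmnb2 (18.1% inside and 0% outside in WT) and Abhd11 (14.9% and 1.26%) had it too.

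**Figure D4:**
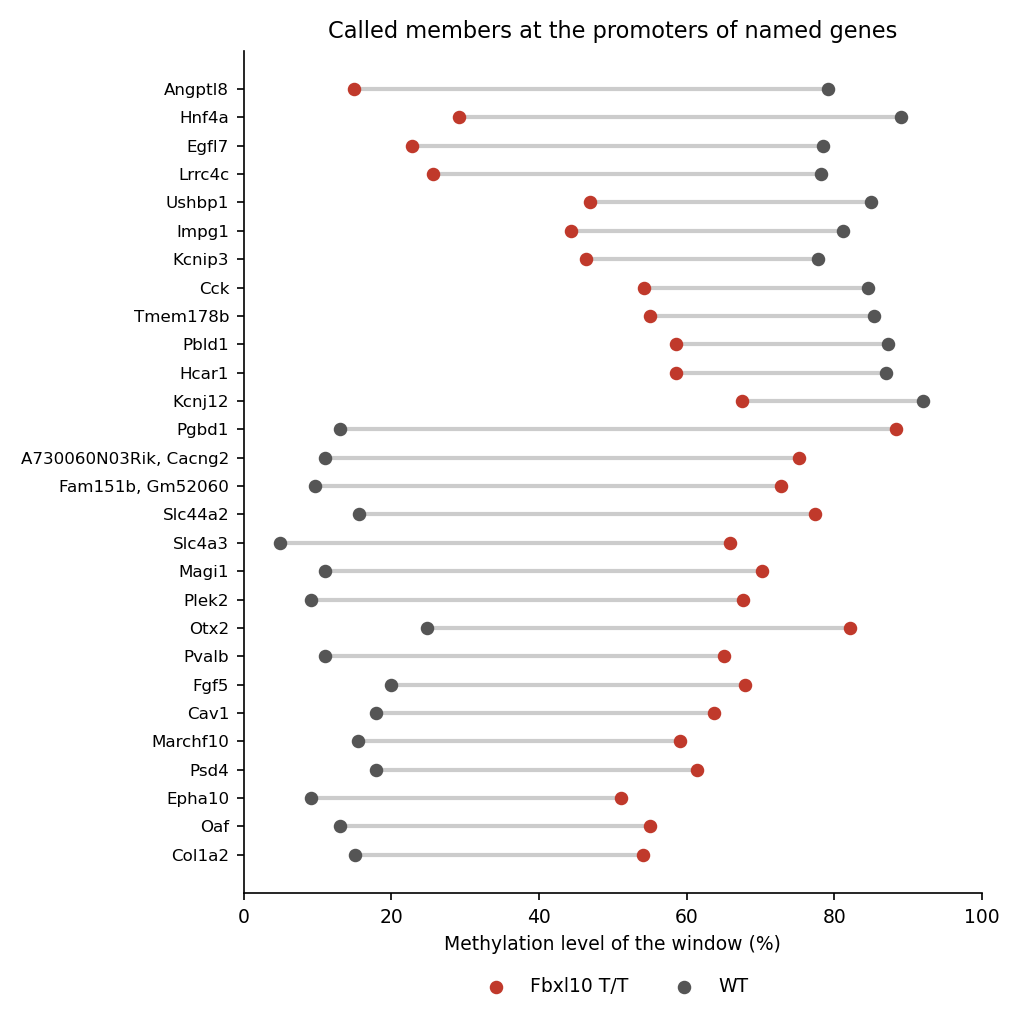
Methylation level (x axis, %) of the member window at each named promoter in Fbxl10 T/T (red) and WT (grey), 12 called down (top) and 16 called up (bottom), each ordered by the size of the difference. Fbxl10 T/T levels run from 14.9% at Angptl8 to 67.6% at Kcnj12 among the falls and from 88.4% at Pgbd1 to 51.1% at Epha10 among the rises.

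The 3 Polycomb mutants were also lower than WT in these windows, most clearly outside CCGG. Their libraries were shallow, so reads were summed over member CpGs listed in the mutant and in WT. Outside CCGG, 55.8% [55.4 to 56.1] of reads were methylated in Ring1B -/- and 70.6% in WT. In Eed -/- it was 60.2% [59.8 to 60.5], against 70.8% in WT at the same CpGs. In Ezh2 -/- it was 52.8% [52.4 to 53.2], against 70.9% in WT. Inside CCGG the shares were 69.6% in Ring1B -/- and 75.7% in WT, 72.8% in Eed -/- and 75.8% in WT, and 66.1% in Ezh2 -/- and 75.6% in WT. A few deep windows weigh in these sums. Without the 28 members above 1000 WT reads, the difference outside CCGG was -17.2 points in Ring1B -/-, -11.9 in Eed -/- and -20.4 in Ezh2 -/-.

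Cytosines followed by C or T showed C in 1.79 to 2.77% of reads in the Polycomb mutant libraries, against 0.616 and 0.838% in WT. The part of unconverted cytosines in their CpG levels was not tested.

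Few members were deep enough to test singly in these libraries. At 30 or more mutant reads, 134 of 492 members were called down in Ring1B -/- (27.2%), where 3.42% of all 13687 windows tested were. In the same library 7 members were called up (1.42%), where 3.08% of all were. In Eed -/- 79 of 452 were called down (17.5%, where 2.61% of all were) and 8 up (1.77%, where 1.21% of all were). In Ezh2 -/- 91 of 336 were called down (27.1%, where 3.48% of all were) and 2 up (0.595%, where 1.10% of all were). At 60 or more reads the calls were too few to show a direction, with 1 down and 2 up of 21 members in Ring1B -/- and a mean difference of -0.848 points there, beside -12.5 at 30 reads. In Eed -/- they were 2 down and 0 up of 22, and in Ezh2 -/- 4 down and 0 up of 19. The windows tested at that depth differ in level, since all those tested averaged 21.1% in Ring1B -/- and 18.1% in WT, while the members tested averaged 57.3% in Ring1B -/- and 69.8% in WT.

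The largest fall in Ring1B -/- was at chr13:111228001-111229000, with 9.38% in Ring1B -/- (32 reads) and 92.6% in WT (162 reads). It was not called in Fbxl10 T/T, where the mean over CpGs was 84.0%, a difference of -6.90 points from the WT mean over CpGs. In this paragraph the Polycomb mutant and WT values are shares of summed reads. The Fbxl10 T/T values are means over CpGs, so the measures differ. The largest fall in Eed -/- was at chr8:19161001-19162000, with 17.8% in Eed -/- (45 reads), 55.9% in Fbxl10 T/T and 82.1% in WT (463 reads). The largest fall in Ezh2 -/- was at chr6:145074001-145075000, with 13.3% in Ezh2 -/- (45 reads), 54.1% in Fbxl10 T/T and 75.6% in WT (356 reads). Among the rises, chr4:9421001-9422000 had 75% in Ezh2 -/- (36 reads), 92.2% in Fbxl10 T/T and 31.9% in WT. At chr2:157422001-157423000 the level was 51.5% in Eed -/- (33 reads), 38.1% in Fbxl10 T/T and 13.7% in WT. At chr1:19789001-19790000 it was 69.0% in Ring1B -/- (126 reads), 41.4% in Fbxl10 T/T and 30.9% in WT.

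Over the CpGs each library listed, members that rose in Fbxl10 T/T were below WT in the Polycomb mutants outside CCGG, not inside it. Outside CCGG, 64.2% of the reads of members called up were methylated in Fbxl10 T/T, while Ring1B -/- had 19.6%, Eed -/- 16.5%, Ezh2 -/- 13.4% and WT 24.4%. Inside CCGG the members called up had 70.5% in Fbxl10 T/T, while Ring1B -/- had 43.7%, Eed -/- 40.6%, Ezh2 -/- 37.7% and WT 37.3%. Outside CCGG again, for members called down Fbxl10 T/T had 45.2%, Ring1B -/- 65.3%, Eed -/- 72.0%, Ezh2 -/- 63.6% and WT 86.2%. For uncalled members Fbxl10 T/T had 68.2%, Ring1B -/- 57.6%, Eed -/- 63.0%, Ezh2 -/- 54.5% and WT 74.5%. These values leave out members above 1000 WT reads. Each library was summed over the CpGs that it lists itself, so the CpGs compared are not the same. Outside CCGG, members called up held 1375 such CpGs for WT and between 837 and 860 for the Polycomb mutants. The part of this mismatch in the gaps to WT was not tested. The call itself rests on the Fbxl10 T/T and WT libraries, and all comparisons share the WT library, so the values stand side by side with no test.

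Cytosines followed by A were also lower in Fbxl10 T/T. In members they showed C in 0.895% [0.883 to 0.907] of 2267935 reads in Fbxl10 T/T and in 2.59% [2.57 to 2.61] of 3248573 reads in WT. Cytosines followed by C, which give the level of unconverted reads at the most, were at 0.487% in Fbxl10 T/T and 0.616% in WT, and those followed by T at 0.451% in Fbxl10 T/T and 0.838% in WT. In windows of 20 or more listed CpGs, cytosines followed by A were at 0.531% in Fbxl10 T/T and 0.502% in WT. The member values leave out members above 1000 WT reads.

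The lower level before A was also seen in members whose CpGs were not called. In members called down these cytosines were at 0.489% in Fbxl10 T/T and 2.64% in WT. In uncalled members they were at 1.13% in Fbxl10 T/T and 2.71% in WT. In members called up they were at 0.750% in Fbxl10 T/T and 0.764% in WT, where cytosines followed by C were at 0.442% in Fbxl10 T/T and 0.414% in WT. In the Polycomb mutant libraries the levels before A and before C lay closer together than in WT, with 2.44% before A and 2.45% before C in Ring1B -/-, 3.25% and 2.69% in Eed -/-, and 2.14% and 2.04% in Ezh2 -/-, against 2.59% and 0.616% in WT. Before A, the raw share was above WT in Eed -/- and below it in Ring1B -/- and Ezh2 -/-. Since the levels before C also differ, these raw shares do not rank methylation between libraries.

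**Figure D5:**
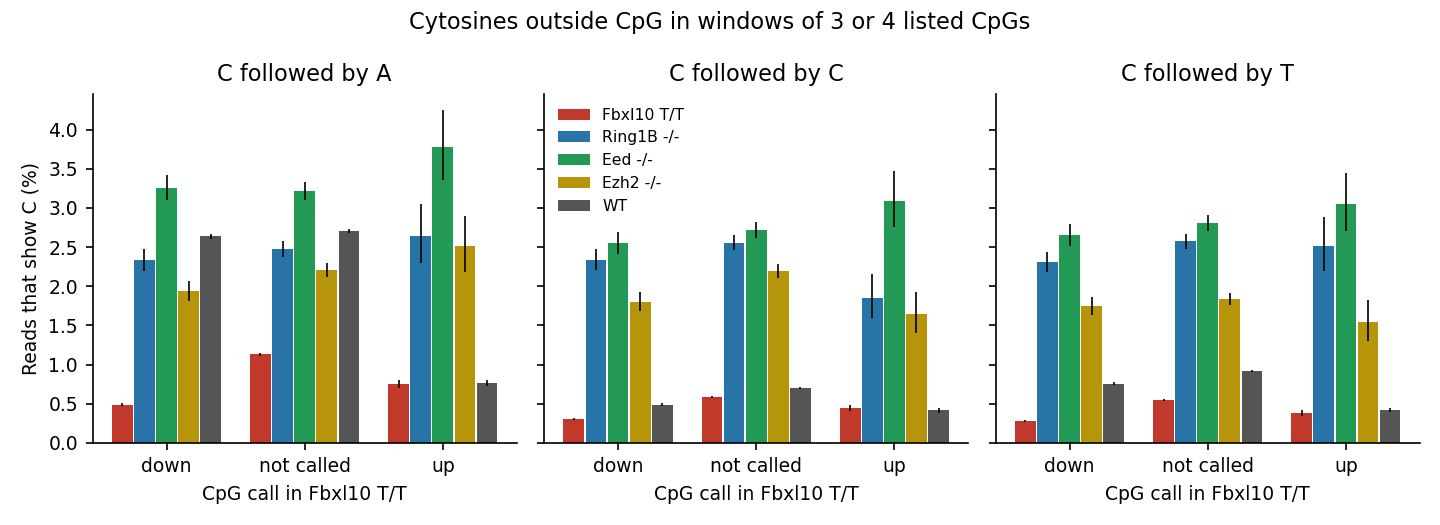
Share of reads that show C (y axis, %) at member cytosines followed by A, C and T, by the CpG call of the window in Fbxl10 T/T (x axis), in the 5 libraries, with 95% Wilson intervals. Before A, members called down stood at 0.489% in Fbxl10 T/T and 2.64% in WT, and members called up at 0.750% and 0.764% in the same libraries.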

How the data were processed

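RRBS tables of 5 libraries, 1 per genotype, were used. Per the submitters' processing notes, BSMAP 2.74 and build mm9 were used. Trimming and removal of duplicates are not given in the sources used here. For each cytosine the tables give raw counts, deposited as whole numbers: the reads showing C, and those showing C or T. A further deposited column holds expected counts, which are C or T reads scaled by opposite-strand reads, and the fraction deposited beside it is C reads over them, both per the file headers. CpGs are deposited on the + strand only, both strands summed.

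Levels were computed from the raw counts at CpGs with at least 10 reads in both libraries. Members, gene names and lists were chosen with earlier results of these data known. Fisher's exact test (two-sided) compared summed reads, with Benjamini-Hochberg adjustment over all windows or CpGs tested, and the code was tested on simulated data. Reads of 1 fragment enter at each CpG, so p-values rank windows and carry no spread between cultures. Polycomb mutants were tested at 30 or more summed mutant reads.

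Named windows were, among called members with at least 60 reads in each library and differences of at least 20 points inside and outside CCGG, the 10 largest falls and 6 largest rises. Per Polycomb mutant it was the largest fall and rise. No mm9 genome or annotation was used. In a step added after the tables were seen, RefSeq promoters (GRCm38.p6) were matched to the bases spelled out by contexts, from a 16-base seed, with at least 40 known bases, 0 mismatches and 1 place on the same chromosome. No coordinates were converted. Of called promoter members, 12 of 25 falls and 16 of 37 rises are shown, chosen by size among genes with an ordinary symbol after the values were seen. Alternatives were 5 and 20 reads, other thresholds, CpG kinds, weights and window choices. Python 3.11.15, NumPy 2.4.6, pandas 2.3.3, SciPy 1.17.1, numba 0.67.0 and matplotlib 3.10.9 were used.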

Additional observations from a re-analysis of the deposited data

Results flagged for a closer look

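In members at 70% or above in WT, the level changed in opposite directions in Fbxl10 T/T and in the 3 Polycomb mutant libraries. The change is that from 6 to 20 kb to over 500 kb from CpG-rich DNA. The WT value cannot be read for it, since the choice by WT level holds WT high. Outside CCGG, the level at over 500 kb minus that at 6 to 20 kb was -14.8 points for Fbxl10 T/T, 7.44 for Ring1B -/-, 3.72 for Eed -/-, 9.30 for Ezh2 -/- and 2.31 for WT. Inside CCGG these differences were -12.4 points for Fbxl10 T/T, 3.20 for Ring1B -/-, 3.13 for Eed -/-, 6.39 for Ezh2 -/- and 1.81 for WT. Over members of any WT level, cytosines followed by C also showed C more often at over 500 kb than at 6 to 20 kb. In Ring1B -/- these shares were 2.33% at 6 to 20 kb and 3.94% at over 500 kb. In Eed -/- they were 2.54% and 4.02%, and in Ezh2 -/- 2.07% and 3.31%. In Fbxl10 T/T they were 0.547% and 0.682%, and in WT 0.648% and 0.807%. The part of unconverted cytosines in the climb of the Polycomb mutant libraries was not tested. The difference between libraries was not tested, since each genotype has 1 library.

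Cytosines followed by C or T, which the main comparison does not use, showed C more often in the Polycomb mutant libraries than in WT. Before C, Ring1B -/- had 2.45%, Eed -/- 2.69%, Ezh2 -/- 2.04% and WT 0.616% of member reads showing C. Before T, Ring1B -/- had 2.49%, Eed -/- 2.77%, Ezh2 -/- 1.79% and WT 0.838%. Before A, Eed -/- at 3.25% stood above WT at 2.59%, while Ring1B -/- at 2.44% and Ezh2 -/- at 2.14% stood below it. With levels before C that differ so, the raw shares before A do not rank methylation between libraries.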

How the results depend on the processing

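No paired analysis was possible because each genotype has 1 library, and for the same reason no replicate could be left out. The falls and rises of members stayed within 1.5 times of the reported counts under every alternative except those that follow. With 20 reads, 4004 of 12496 members were called down, 3722 of them at 70% or above in WT and 16 at promoters. With 30 points, 3511 were down and 553 up, 3360 were down at 70% or above in WT and 13 at promoters. After thinning to 10 reads, 4149 were down and 578 up, with 16 down and 24 up at promoters. With reads divided by CpGs (added after seeing the data), 600 were up. Single CpGs at 40 points gave 4028 down and 600 up outside CCGG, and 2855 down and 600 up inside.

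The mean difference outside CCGG was -13.2 points read-weighted, -16.8 with 5 reads and -15.5 with 20 reads. Inside CCGG it was -9.22, -10.6 and -9.33 points under the same settings. For the Polycomb mutants, 10 or more summed reads gave 1057 down and 46 up in Ring1B -/-, 595 and 31 in Eed -/-, and 1207 and 18 in Ezh2 -/-. With 60 or more they were 1 and 2 of 21 members in Ring1B -/-, 2 and 0 of 22 in Eed -/-, and 4 and 0 of 19 in Ezh2 -/-. Added after seeing the data, WT weighted by mutant reads gave differences outside CCGG of -16.0 points in Ring1B -/- and -17.6 in Ezh2 -/-. Inside CCGG it gave -7.25 in Ring1B -/-, -4.09 in Eed -/- and -10.1 in Ezh2 -/-. Members up to 1000 WT reads gave -17.2, -11.9 and -20.4 points outside CCGG, and -7.09, -3.99 and -10.7 inside, for Ring1B -/-, Eed -/- and Ezh2 -/- in that order. With CpG-rich windows of at least 10 listed CpGs, 28.6% of members at 70% or above in WT were down at 6 to 20 kb and 70.6% at over 500 kb, and with at least 40 it was 58.4% at over 500 kb (both added after seeing the data). The cause of these shifts was not tested.

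For the 43 named windows and promoters, 627 of 638 values under these alternatives kept direction and call, 11 kept direction only, and 0 reversed. Limits remain. Without replicates nothing separates genotype from culture. A median of 29 reads per CpG in Fbxl10 T/T and of 3 in the Polycomb mutants limits single sites. Only a median of 51 bases per window was read.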
